A study of Mus musculus with 26 samples.

Results

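The genes described here are 55 mouse genes of the Wnt signalling pathway, listed by name. The list was made with earlier results of these data known. They fall into 16 ligands (the Wnt genes), 12 receptors (the Frizzled genes Fzd1 to Fzd10 with Lrp5 and Lrp6), 13 antagonists (the Sfrp, Frzb, Dkk, Axin, Nkd and Notum genes) and 6 nuclear factors and targets (Ctnnb1, Lef1, Tcf7, Tcf7l1, Tcf7l2 and Sp5). The other 8 are components that process ligands, receptors or beta-catenin (Porcn, Wls, Apc, Gsk3b, Znrf3, Rnf43, Lgr4 and Lgr5). All 55 had a row among the 53978 genes of the dTAG13 table and the 50969 genes of the overexpression table, and 42 had a row among the 21275 genes of the testis table. The remaining 13 (Wnt7b, Wnt8a, Wnt9a, Wnt10a, Wnt11, Fzd10, Sfrp4, Sfrp5, Dkk1, Dkk2, Dkk3, Notum and Sp5) were not analysed here in testis.

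RNA-seq was available from 26 samples in 3 experiments on Tex10 in germ cell formation. The dTAG13 experiment held 129Sv/J epiblast-like cells (EpiLCs, untreated, 2 libraries) and their derivatives, primordial germ cell-like cells (PGCLCs). PGCLCs were taken at day 2 and at day 4, with DMSO or with 500 nM dTAG13, at 2 libraries in each of these 4 groups. dTAG13 is a small molecule that brings a tagged protein to the proteasome. The labels do not give the tag, the line or the number of clones. The overexpression experiment held 129Sv/J cells, labelled untreated, from 1 empty-vector control and 2 Tex10 overexpression clones, each with 1 library as EpiLCs and as PGCLCs at day 2, day 4 and day 6. The testis experiment held 2 wildtype and 2 Tex10 conditional knockout (cKO) samples of cells from C57BL/6N testis, labelled untreated, with no age and no Cre driver in the labels. Nothing states that replicates came from separate cultures or animals, so p-values measure the spread between these samples, which may be technical.

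Wnt ligands are secreted lipid-modified proteins. Porcn adds the lipid, Wls carries the ligand to the cell surface and Notum removes the lipid again outside the cell. Ligands bind Frizzled receptors with the co-receptors Lrp5 and Lrp6, Sfrp proteins and Frzb bind ligands, and Dkk proteins bind the co-receptors. Without a signal, a complex of Axin, Apc and Gsk3b marks beta-catenin (Ctnnb1) for destruction, and with a signal beta-catenin enters the nucleus and works through Tcf and Lef factors. Axin2, Sp5, Lef1, Nkd1, Notum, Znrf3 and Rnf43 are well known targets, several of which dampen the pathway. In the embryo, Wnt3 in the posterior epiblast is known to be needed for primordial germ cell specification and for mesoderm formation.

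Values are CPM (read counts scaled to a common library size) on the authors' TMM scale (trimmed mean of M values), called TMM-scaled CPM. Libraries held 5055362 to 8564563 reads in the dTAG13 table, 5227287 to 7484600 in the overexpression table and 6058987 to 7272313 in testis. The dTAG13-treated libraries, with 5055362 to 5854980 reads, were shallower than the DMSO libraries, with 6119730 to 8293878. A floor of 3 reads stood at 0.299 to 0.56, and it covers counting error only. Markers followed the labels: a list of 4 formative epiblast genes summed to 1230 and 1460 in EpiLCs and to at most 174 in the other dTAG13-table libraries, 7 germ cell specification genes summed to 64.3 and 69 in EpiLCs and to between 216 and 323 in PGCLCs, and 5 spermatid genes summed to at least 12500 in every testis library. Tex10 itself was at 106 and 113 (DMSO) and 104 and 94 (dTAG13) at day 2, and at 110 and 105 (DMSO) and 76.8 and 72.8 (dTAG13) at day 4, with log2 fold changes of -0.14 (limma adjusted p 0.322) and -0.51 (limma adjusted p 0.000576). dTAG13 acts on protein, which was not measured, so the transcript does not check these labels. In the clones Tex10 was higher than in the empty-vector line at every stage (330 to 654 against 145 to 213), and in testis it was at 29.8 and 27.3 in cKO and 79.1 and 44.1 in wildtype. Tex10 shares exon bases with Invs on the opposite strand, and whether reads were counted by strand is not given.

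Fold changes are log2 differences on the log2(value + 1) scale, on which changes of low genes come out too small. limma was run on every gene whose table mean reached 1, and called means a Benjamini-Hochberg adjusted p under 0.05 over all genes tested. The filter left 42 of 55 members in the dTAG13 table, 42 of 55 in the overexpression table and 41 of 42 in testis. Under it in the dTAG13 table were Wnt1, Wnt2, Wnt5a, Wnt7a, Wnt10b, Wnt11, Sfrp5, Frzb, Dkk1, Dkk2, Dkk3, Sp5 and Lgr5. Another 4 members (Wnt2b, Wnt3a, Wnt6 and Wnt10a) had a mean under 1 in the untreated and DMSO libraries and passed only through the dTAG13 libraries. Counts with no filter are therefore given beside those over tested members for the dTAG13 ligands and antagonists. For all members together, they stand beside the result or under the dependence on processing.

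The control cells came first, to show the pathway during normal induction. From EpiLCs to day 2, most called receptors and 3 targets or nuclear factors (Axin2, Lef1 and Tcf7) fell, and 19 of 42 tested members were called in all (8 higher, 11 lower), against 26.2% of all 16605 genes tested. The EpiLC libraries were untreated and the day 2 libraries had DMSO, so stage and solvent cannot be told apart. Lef1, a nuclear partner of beta-catenin, stood at 259 and 265 in EpiLCs, 15.1 and 14.7 at day 2 and 0.859 and 3.19 at day 4. It thus fell at each step, by 4.05 on the log2 scale to day 2 (standard error 0.255, limma adjusted p 1.29e-10) and by 2.51 from day 2 to day 4 (standard error 0.255, limma adjusted p 1.9e-06). Axin2, the feedback target that rebuilds the destruction complex, had 43.2 and 39.6 in EpiLCs, 7.42 and 7.6 at day 2 and 6.34 and 5.97 at day 4. It fell by 2.32 to day 2 (limma adjusted p 2.26e-08) and was not called from day 2 to day 4 (-0.25, limma adjusted p 0.584). Axin2 shares exon bases with Gm11670 on the opposite strand.

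Receptors changed over the same interval. Of 12 receptors, 8 were called between EpiLCs and day 2: Fzd1, Fzd2, Fzd4, Fzd7, Fzd8 and Fzd9 fell by 1.25 to 1.8, and Fzd3 and Fzd5 rose by 1.02 and 1.31. The call of Fzd1 was lost without EpiLC replicate 1 (-1.01, limma adjusted p 0.0617), and that of Fzd9 without EpiLC replicate 2 (-1.14, limma adjusted p 0.0878) and with no filter (limma adjusted p 0.0604). Per kilobase of exon, Fzd7 was the highest receptor in EpiLCs, at a mean of 86.5 TMM-scaled CPM, with Lrp6 next at 17.8. At day 4 Fzd5 was highest, at 53.1 per kilobase, and Fzd7 followed at 23.6. Fzd2 had 56.4 and 59 in EpiLCs, 16.7 and 14.9 at day 2 and 6.01 and 2.99 at day 4, with changes of -1.8 (limma adjusted p 6.38e-06) and -1.67 (limma adjusted p 0.000104) that left no overlap between stages. Sfrp1, a secreted antagonist, moved the other way, from 17 and 19.6 in EpiLCs to 56.5 and 42.2 at day 2 and 156 and 110 at day 4. It rose by 1.37 (limma adjusted p 1.17e-05) and then by 1.4 (limma adjusted p 5.69e-05).

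Ligands were scarce in control cells. Wnt5b was at 4.06 and 4.21 in EpiLCs and 0.252 and 1.36 at day 2 (-1.58, limma adjusted p 0.00462). That call was lost without day 2 DMSO replicate 1 (-1.12) and with no filter (limma adjusted p 0.0726). Wnt7b went from 2.41 and 4.87 to 15.5 and 24.3 at day 2 (2.19, limma adjusted p 5.22e-07) and back to 7.84 and 6.87 at day 4 (-1.29, limma adjusted p 0.00178). Wnt4, at 1.01 and 0.332 in EpiLCs, was at 3.9 and 3.53 at day 2 (1.52, limma adjusted p 0.000741) and at 0.43 and 1.29 at day 4 (-1.38, limma adjusted p 0.00785). The third ligand that rose into day 2, Wnt3a (1.42), was not called from day 2 to day 4 (-0.71, limma adjusted p 0.251), and both steps share the day 2 libraries. From day 2 to day 4, 10 of 42 members were called (2 higher, 8 lower), against 5.52% of all genes, and the 8 that fell were Lef1, Fzd2, Fzd7, Wls and the ligands Wnt3, Wnt4, Wnt7b and Wnt8a. Wls, the ligand carrier, fell from 6.29 and 5.16 to 0.43 and 0.996 (-1.99, limma adjusted p 8.84e-05). Wnt3 was at 1.01 and 2.99 at day 2 and at 0 and 0.0996 at day 4 (-1.43, limma adjusted p 0.0139), and Wnt8a at 1.01 and 2.71 and then at 0 and 0.0996 (-1.38, limma adjusted p 0.01). Without day 2 DMSO replicate 2, 6 members were called while the share of all genes called fell to 2.56%, and Wnt3 was at -0.94, Wnt8a at -0.94, Wnt7b at -0.98 and Fzd7 at -0.48. Wnt4 lost its call without day 2 DMSO replicate 1 (-1.32) and without day 4 DMSO replicate 1 (-1.04), and Wnt3 also without the latter (-1.36). With no filter 5 members were called, against 0.873% of all genes, and 0 of the 16 ligands were among them. The limma adjusted p was then 0.172 for Wnt3, 0.0977 for Wnt4, 0.0619 for Wnt7b, 0.122 for Wnt8a and 0.0716 for Fzd7.

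With dTAG13, every called ligand was higher on each day, and the secreted antagonists Sfrp1, Sfrp2 and Notum were lower. At day 2, 22 of 42 tested members were called (13 higher, 9 lower) against 33.6% of all genes (13.7% higher, 19.9% lower), and at day 4 it was 28 of 42 (16 higher, 12 lower) against 41.8% (15.8% higher, 26.0% lower). Among the 10 ligands tested, 6 rose and 0 fell at day 2, and 8 rose and 0 fell at day 4. Their median log2 fold change was 2.05 at day 2 and 2.39 at day 4, beside medians of -0.09 and -0.133 over all genes tested. With no filter, 7 of all 16 ligands rose at day 2 (11.8% of all genes called, 5.78% higher and 6.04% lower) and 9 of 16 at day 4 (16.3% of all genes called, 7.53% higher and 8.77% lower), and 0 fell on either day. Their median was then 0.97 and 1.31. Median-ratio scaling moved the median of all genes at day 4 from -0.133 to -0.029, and on that scale the ligand counts were again 6 and 8, all higher. With the filter applied to untreated and DMSO libraries only, 20 of 38 members were called at day 2 and 25 of 38 at day 4, against 32.5% and 41% of all genes under that filter.

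**Figure D1:**
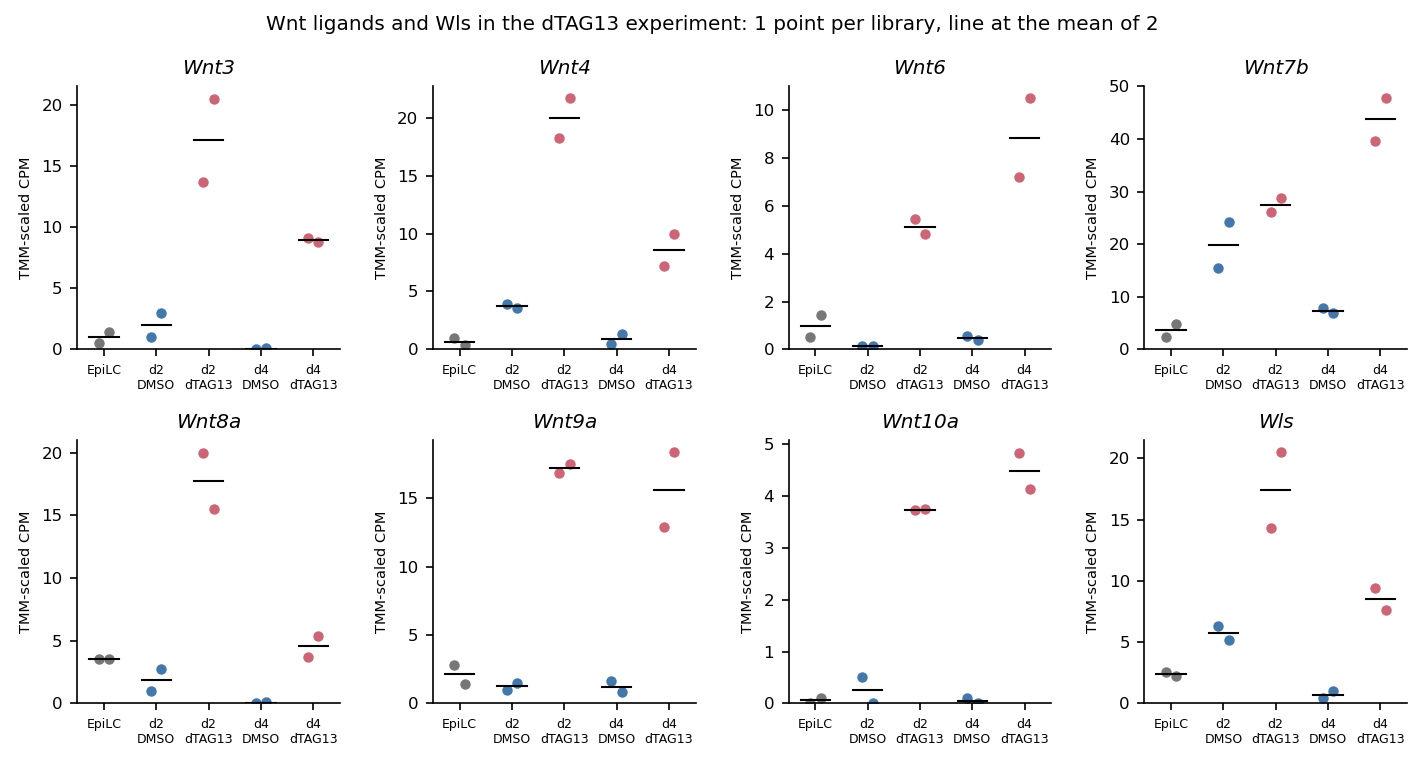
TMM-scaled CPM (y axis, each panel from 0) of 7 Wnt ligands and Wls in the 10 libraries of the dTAG13 experiment, grouped on the x axis by stage and treatment, with 1 point per library and a line at the mean of 2. Both dTAG13 points lie above both DMSO points of the same day in each panel, and Wnt7b has the smallest gap at day 2.

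Summed per kilobase of exon over all 16 ligands, the level was 6.57 and 10.8 with DMSO and 37.2 and 38.7 with dTAG13 at day 2. At day 4 the sums were 3.22 and 3.2 with DMSO and 26.9 and 33.8 with dTAG13, and in EpiLCs 5.73 and 6.46. The dTAG13 libraries thus lay above the DMSO and the EpiLC libraries. In bulk samples, fewer cells of a type and less RNA per cell cannot be told apart.

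Wnt3, the ligand known for its role in germ cell specification, was at 1.01 and 2.99 with DMSO and 13.7 and 20.5 with dTAG13 at day 2, and at 0 and 0.0996 with DMSO and 9.09 and 8.74 with dTAG13 at day 4. Neither day had an overlap between treatments, and the changes were 2.65 (standard error 0.343, limma adjusted p 3.95e-06) and 3.24 (standard error 0.343, limma adjusted p 1.25e-07). In reads, Wnt3 had 117 against 1 over the 2 libraries a side at day 4, a depth-corrected ratio of 173 with an exact 95% counting interval of 30.4 to 6880. EpiLCs, at 0.507 and 1.44, lay near the DMSO cells.

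Wnt9a, a ligand of joints and blood stem cell development, had the largest ligand change at day 2 on the log2(value + 1) scale, which is not the order of the read ratios. It was at 1.01 and 1.49 with DMSO and 16.9 and 17.5 with dTAG13 at day 2, and at 1.61 and 0.797 against 12.9 and 18.4 at day 4. These are changes of 3.03 (standard error 0.301, limma adjusted p 1.09e-07) and 2.92 (standard error 0.301, limma adjusted p 8.32e-08). Wnt6 was at 0.126 and 0.136 with DMSO against 5.44 and 4.82 with dTAG13 at day 2, and at 0.537 and 0.398 against 7.19 and 10.5 at day 4. It rose by 2.44 (limma adjusted p 4.87e-06) and 2.73 (limma adjusted p 5.54e-07), and in reads by a ratio of 39.1 at day 2, from 2 to 71 reads (counting interval 10.4 to 329). Wnt6 passed the filter only through the dTAG13 libraries, and with no filter its limma adjusted p was 0.00152 and 0.000437.

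Wnt8a, a ligand of the primitive streak, was at 1.01 and 2.71 against 20 and 15.5 at day 2 and at 0 and 0.0996 against 3.67 and 5.4 at day 4. Its changes were 2.77 (limma adjusted p 7.8e-07) and 2.38 (limma adjusted p 3.04e-06), and its treated level was lower at day 4 than at day 2. Wnt4, which acts in kidney and gonad development, was at 3.9 and 3.53 against 18.3 and 21.7 at day 2 and at 0.43 and 1.29 against 7.19 and 10 at day 4 (2.15 and 2.39, limma adjusted p 1.34e-05 and 1.91e-06). Wnt10a was at 0.503 and 0 against 3.73 and 3.75 at day 2, and at 0.107 and 0 against 4.84 and 4.13 at day 4 (1.95 and 2.38, limma adjusted p 7e-05 and 3.66e-06). It too passed the filter only through the dTAG13 libraries, and with no filter its limma adjusted p was 0.00311 and 0.000559.

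The ligands were not alike in time. Wnt7b was at 15.5 and 24.3 with DMSO and 26.1 and 28.8 with dTAG13 at day 2 (0.48, not called), and at 7.84 and 6.87 against 39.6 and 47.8 at day 4 (2.42, limma adjusted p 5.75e-08). Wnt3a was at 1.51 and 2.17 against 0.932 and 1.61 at day 2 (-0.33, limma adjusted p 0.474) and at 0.752 and 0.697 against 2.05 and 3.66 at day 4 (1.13, limma adjusted p 0.00859). That day 4 call was lost without dTAG13 replicate 2 (0.82). Wnt3a passed the filter only through the dTAG13 libraries, and with no filter its day 4 limma adjusted p was 0.0489. Wnt2b and Wnt5b were not called on either day by limma, while edgeR called 9 ligands higher at day 4. Wnt5b had 3 reads with DMSO and 16 with dTAG13 at day 4, a ratio of 7.87 (counting interval 2.25 to 42.2). Among ligands under the filter, Wnt7a had ratios of 8.44 (3 and 23 reads, counting interval 2.55 to 43.9) at day 2 and 9.6 (2 and 13 reads, counting interval 2.17 to 87.6) at day 4. Its reads were uneven between dTAG13 libraries, at 4 and 19 and then 3 and 10. With no filter Wnt7a was not called on either day (limma adjusted p 0.129 and 0.204). Wnt10b had 1 read with DMSO and 30 with dTAG13 at day 2 (ratio 33.0, counting interval 5.49 to 1350) and 2 and 30 at day 4 (ratio 22.1, counting interval 5.62 to 191). With no filter Wnt10b was called on each day (limma adjusted p 0.00902 and 0.00783). Per kilobase of exon, Wnt8a was the highest ligand with dTAG13 at day 2, at 10.2, and Wnt7b at day 4, at 8.92, followed by Wnt9a at 4.72, Wnt6 at 4.03 and Wnt3 at 2.9.

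Some of these ligands are neighbours in the genome (mm10, equal to GRCm38, GENCODE M21 positions). Wnt6 at chr1:74771892-74785322 and Wnt10a at chr1:74791516-74804179 both rose on each day. Around Wnt6, the 20 nearest tested genes had a median change of 0.08 at day 2 and 0.1 at day 4, so the pair stood above its surroundings. Wnt9a at chr11:59306928-59333552 rose on each day, and its divergent neighbour Wnt3a at chr11:59248033-59290752 was called at day 4 and not at day 2. For Wnt3a the difference between days, 1.46, had a limma adjusted p of 0.151. Wnt3 at chr11:103774150-103817957 had neighbours with medians of 0.21 and 0.33. Wnt7b shares exon bases with AU022754 on the opposite strand, and its reads could not be told apart from those of that gene without the strand setting.

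The 4 upstream windows are shown because they belong to the ligands with the largest changes on the log2(value + 1) scale (Wnt9a at day 2 and Wnt3 at day 4) and to 2 textbook beta-catenin targets (Sp5 and Lef1), whose values are given below. Each is the 250 bases before a RefSeq start site (GRCm38.p6), 5′ to 3′ on the strand of the gene, all on the plus strand. Capitals mark CTTTGA or, on the other strand, TCAAAG, the core letters bound by Tcf and Lef factors.
Wnt3, chr11:103773925-103774174: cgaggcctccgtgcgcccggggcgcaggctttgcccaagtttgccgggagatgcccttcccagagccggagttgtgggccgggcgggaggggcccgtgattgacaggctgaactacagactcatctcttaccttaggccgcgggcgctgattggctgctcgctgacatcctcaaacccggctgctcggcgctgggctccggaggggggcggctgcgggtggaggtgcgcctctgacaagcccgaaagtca
Wnt9a, chr11:59306680-59306929: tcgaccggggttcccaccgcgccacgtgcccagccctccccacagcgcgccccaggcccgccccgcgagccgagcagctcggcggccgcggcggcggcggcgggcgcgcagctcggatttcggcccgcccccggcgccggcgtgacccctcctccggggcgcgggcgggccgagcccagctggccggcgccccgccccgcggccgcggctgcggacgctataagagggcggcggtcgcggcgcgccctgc
Sp5, chr2:70474673-70474922: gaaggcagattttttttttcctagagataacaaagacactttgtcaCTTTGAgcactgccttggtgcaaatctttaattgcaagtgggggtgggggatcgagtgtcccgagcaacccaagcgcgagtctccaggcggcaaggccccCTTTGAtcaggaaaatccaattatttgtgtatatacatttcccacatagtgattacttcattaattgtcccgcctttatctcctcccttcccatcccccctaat
Lef1, an internal start, chr3:131156044-131156293: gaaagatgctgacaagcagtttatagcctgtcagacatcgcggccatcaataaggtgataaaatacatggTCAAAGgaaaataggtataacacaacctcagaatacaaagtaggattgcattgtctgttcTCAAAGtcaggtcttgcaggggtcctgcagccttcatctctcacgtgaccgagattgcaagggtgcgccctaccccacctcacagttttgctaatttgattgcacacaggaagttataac
The Sp5 window held 2 matches, the Lef1 window at the internal start 2, and the Wnt3 and Wnt9a windows 0. The 3 windows at the other listed Lef1 starts held 0, as did the window of Axin2, another textbook target. Windows were listed for 36 of the 55 members, and 8 of these 36 genes (22.2%) had a match in at least 1 window: Dkk1, Frzb, Fzd1, Gsk3b, Lef1, Sp5, Wnt11 and Wnt5b. Among all 27025 genes with a window the share was 15.8%, and among all 32851 windows 13.8%. A match describes letters only.

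Genes for ligand secretion and turnover did not move together. Wls was at 6.29 and 5.16 with DMSO and 14.3 and 20.5 with dTAG13 at day 2, and at 0.43 and 0.996 against 9.39 and 7.63 at day 4. It rose by 1.44 (limma adjusted p 0.000419) and 2.49 (limma adjusted p 3.08e-07) without overlap. Porcn, the acyltransferase, was at 18.4 and 17.8 against 10.9 and 9.63 at day 2 and fell by 0.76 there (limma adjusted p 0.0127), a call lost without DMSO replicate 1 (-0.74) or dTAG13 replicate 2 (-0.68). It lies on the X chromosome, whose tested genes had a median of -0.22 at day 2. Of the 2 ubiquitin ligases that remove Frizzled receptors, Rnf43 rose at day 2 (2.77 and 1.9 against 9.01 and 11.8, change 1.77) and at day 4 (2.9 and 1.19 against 3.23 and 6.04, change 0.9), and Znrf3 fell at day 4 (65.6 and 76.6 against 37.4 and 42.9, change -0.81). The day 4 call of Rnf43 was lost without DMSO replicate 2 (0.48) and without dTAG13 replicate 2 (0.53). It was also lost with no filter, no variance trend and a pseudocount of 0.1 (limma adjusted p 0.15, 0.0666 and 0.0544). Lgr4, an R-spondin receptor, fell on each day (-0.56 and -0.8), Gsk3b, the kinase of the destruction complex, rose on each day (0.41 and 0.5), and Apc was not called. The day 2 call of Gsk3b was lost without DMSO replicate 1 (0.37) or dTAG13 replicate 2 (0.29).

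**Figure D2:**
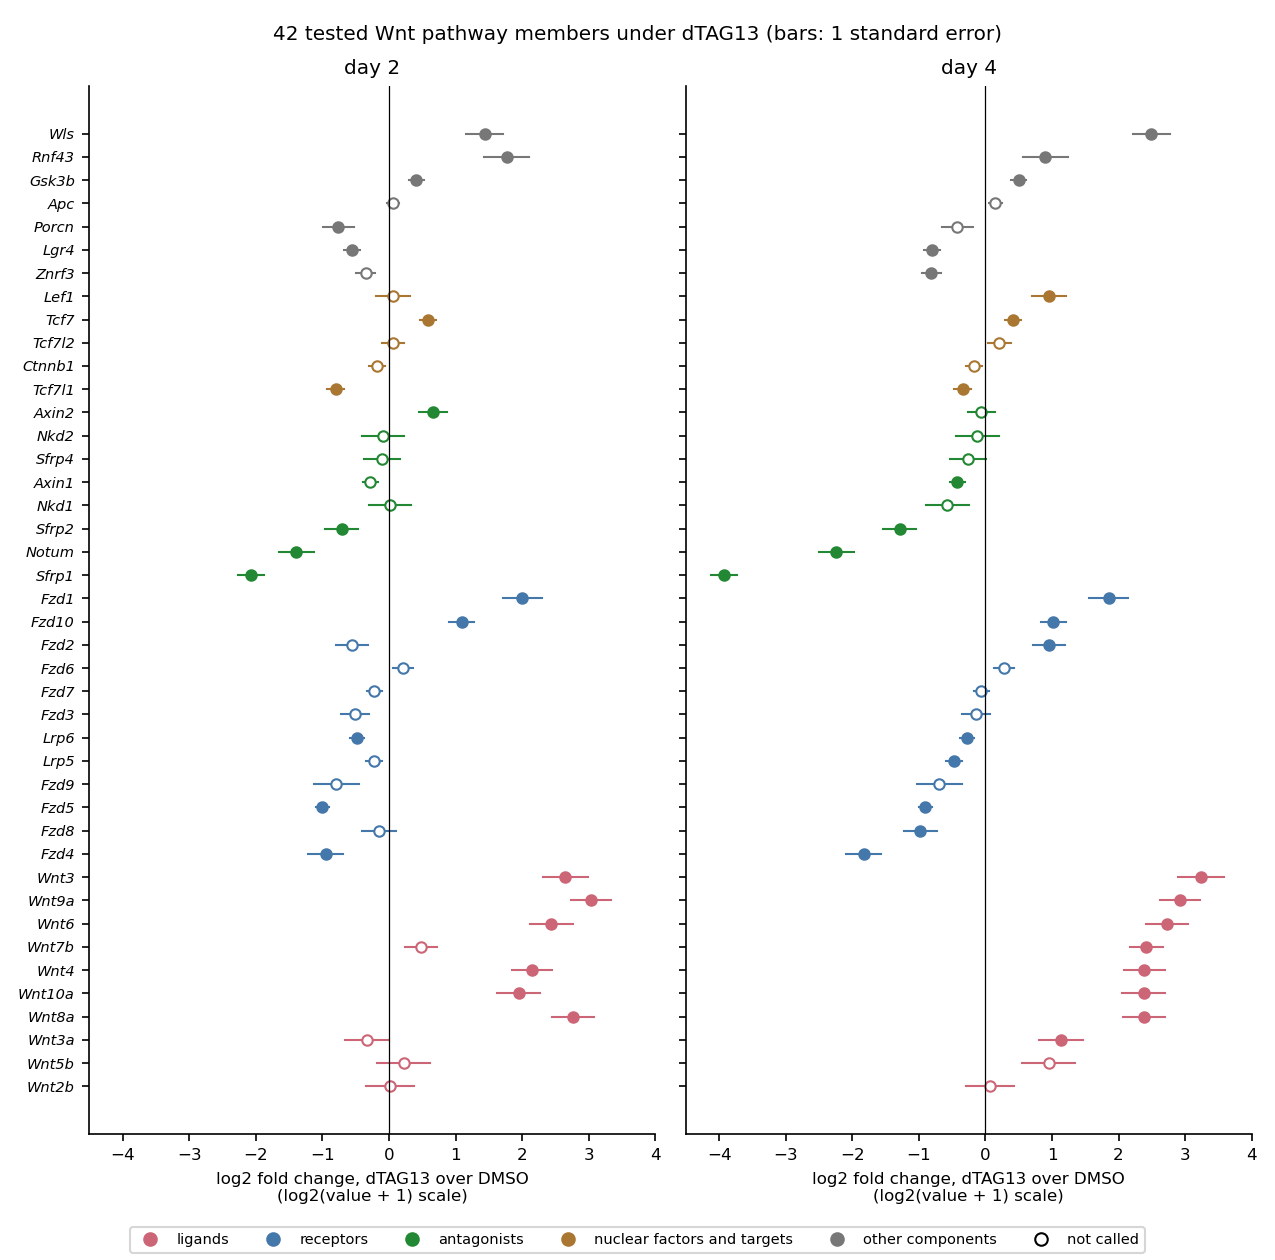
Log2 fold change of dTAG13 over DMSO (x axis, log2(value + 1) scale) for the 42 tested members (y axis, ordered within class by the day 4 value) at day 2 and day 4, with bars of 1 standard error and filled points for called members. Called ligands lie to the right of 0 on each day, with Wnt3 at 3.24 at day 4, and Sfrp1 is the lowest point on each day, at -2.07 and -3.93.

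Called receptors went in both directions. At day 2, 2 of 12 rose and 3 fell, near the shares of all genes (13.7% higher, 19.9% lower), and at day 4 it was 3 and 5 (15.8% and 26.0% of all genes), with medians of -0.35 and -0.21. On the median-ratio scale the day 4 split was 4 and 4. Fzd1 was at 0.629 and 0.679 with DMSO and 5.91 and 5.35 with dTAG13 at day 2, and at 0.859 and 1.1 against 5.87 and 6.36 at day 4 (2 and 1.85, limma adjusted p 1.73e-05 and 2.64e-05). Fzd10 also rose on each day (1.09 and 1.02), and Fzd2 at day 4 (0.95). Fzd5, at 248 and 254 against 118 and 133 at day 2 and 370 and 364 against 197 and 195 at day 4, fell by 1 and 0.9 (limma adjusted p 1.44e-07 and 2.99e-07). Fzd4, a receptor of blood vessel development, was at 14.3 and 12.2 against 6.22 and 6.55, and then at 9.24 and 8.66 against 1.03 and 2.86 (-0.95 and -1.83). Its day 2 call was lost without DMSO replicate 1 (-0.84, limma adjusted p 0.0737). The co-receptor Lrp6 fell by 0.48 at day 2 and 0.27 at day 4. It lies on chromosome 6, whose tested genes had a median of -0.35 at day 2 beside -0.09 on the other autosomes, and on the median-ratio scale its day 4 change was -0.15 (limma adjusted p 0.231). Fzd8 (-0.98) and Lrp5 (-0.47) were called at day 4 and not at day 2, and for neither was the difference between days called. Fzd7 was not called on either day (-0.22 and -0.06).

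Of 8 antagonists tested, 3 fell and 1 rose at day 2 (19.9% of all genes lower, 13.7% higher), and 4 fell and 0 rose at day 4 (26.0% of all genes lower, 15.8% higher), and with no filter 2 of all 13 fell and 1 rose at day 2, with 5 lower and 1 higher at day 4, against 6.04% of all genes lower and 5.78% higher at day 2 and 8.77% and 7.53% at day 4. The higher one at day 4 was Dkk2, at 0 and 0 with DMSO and 0.587 and 0.636 with dTAG13 (0.69, limma adjusted p 0.00951). Dkk1 had 2 reads with DMSO and 14 with dTAG13 at day 4, a ratio of 10.3 (counting interval 2.37 to 93.7), and was not called (0.81, limma adjusted p 0.147). These 2 co-receptor antagonists thus had higher values with dTAG13 at day 4, with at most 4 reads in a library for Dkk2. Dkk3 had a lower value and was not called (-0.44, limma adjusted p 0.447 with no filter). Sfrp1 was at 56.5 and 42.2 with DMSO and 10.4 and 11.4 with dTAG13 at day 2, and at 156 and 110 against 8.95 and 6.52 at day 4. The treated libraries thus stayed under the EpiLC level of 17 and 19.6 while the DMSO libraries rose. Sfrp1 fell by 2.07 at day 2 (standard error 0.191, limma adjusted p 3.82e-08) and by 3.93 at day 4 (standard error 0.191, limma adjusted p 7.58e-13), and its 20 neighbours had medians of -0.14 and 0.01.

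Notum, the enzyme that inactivates ligands, was at 21.9 and 15.6 against 6.37 and 6.55 at day 2 and at 22.1 and 26.2 against 6.6 and 2.7 at day 4. Its changes were -1.39 (limma adjusted p 0.000317) and -2.24 (limma adjusted p 5.32e-07). It shares exon bases with Notumos and Myadml2os on the opposite strand, as do Sfrp2 with Gm26771, Fzd5 with Gm38058 and Tcf7l1 with Gm15401. Sfrp2 was at 7.67 and 9.77 against 5.44 and 4.41, and then at 7.73 and 7.37 against 2.79 and 2.22 (-0.71 and -1.29). The day 2 call of Sfrp2 was lost with median-ratio scaling (-0.63, limma adjusted p 0.0574), in the edgeR test (-0.73, adjusted p 0.0566) and without 3 of the 4 libraries in turn (-0.87 to -0.55). Summed per kilobase over the 9 secreted antagonists (Sfrp1, Sfrp2, Sfrp4, Sfrp5, Frzb, Dkk1, Dkk2, Dkk3 and Notum), the level was 27.4 and 23.1 with DMSO and 9.39 and 9.21 with dTAG13 at day 2, and 51.8 and 41.6 against 7.71 and 6.48 at day 4. The DMSO sums were above and the treated sums below those of EpiLCs, 22.8 and 21.5. Axin1, the constant scaffold of the destruction complex, fell at day 4 (-0.42), without a call when dTAG13 replicate 1 was left out (-0.33), and Sfrp4, Nkd1 and Nkd2 were not called on either day.

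Targets and nuclear factors differed among themselves. Axin2 was at 7.42 and 7.6 with DMSO and 11.3 and 13.6 with dTAG13 at day 2, and at 6.34 and 5.97 against 6.01 and 5.72 at day 4, where the treatments overlapped. Its day 2 change of 0.66 was called (limma adjusted p 0.0167), but the call was lost without DMSO replicate 1, DMSO replicate 2 or dTAG13 replicate 2 (0.54 to 0.68). At day 4 it was -0.06 (limma adjusted p 0.847), and the sign reversed to 0.04 with median-ratio scaling and 0.06 with edgeR. Axin2 also remained under its EpiLC level of 43.2 and 39.6 in every PGCLC library of the table.

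Sp5, a direct target, was under the filter. It had 1 and 2 reads with DMSO and 14 and 11 with dTAG13 at day 2, a ratio of 9.18 (counting interval 2.8 to 47.5), and 0 and 0 against 2 and 6 at day 4. With no filter it was called at day 2 (1.23, limma adjusted p 0.011). Lef1 was at 15.1 and 14.7 against 15.2 and 15.9 at day 2 (0.06, limma adjusted p 0.879) and at 0.859 and 3.19 against 4.11 and 4.77 at day 4 (0.96, limma adjusted p 0.00438). That day 4 change rests on DMSO replicate 1, without which it was 0.37 (limma adjusted p 0.153). Tcf7 rose on each day (0.59 and 0.42), from 42.8 and 43.4 to 67.9 and 62.7 at day 2 and from 36.1 and 36.2 to 48.8 and 48.8 at day 4. Tcf7l1, known as the repressor of the family, fell from 93.4 and 105 to 58 and 54.8 at day 2 (-0.8, limma adjusted p 4.62e-05) and lies on chromosome 6. At day 4 it fell by 0.34, and that call was lost with median-ratio scaling (-0.22, limma adjusted p 0.16). Ctnnb1 and Tcf7l2 were not called on either day.

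**Figure D3:**
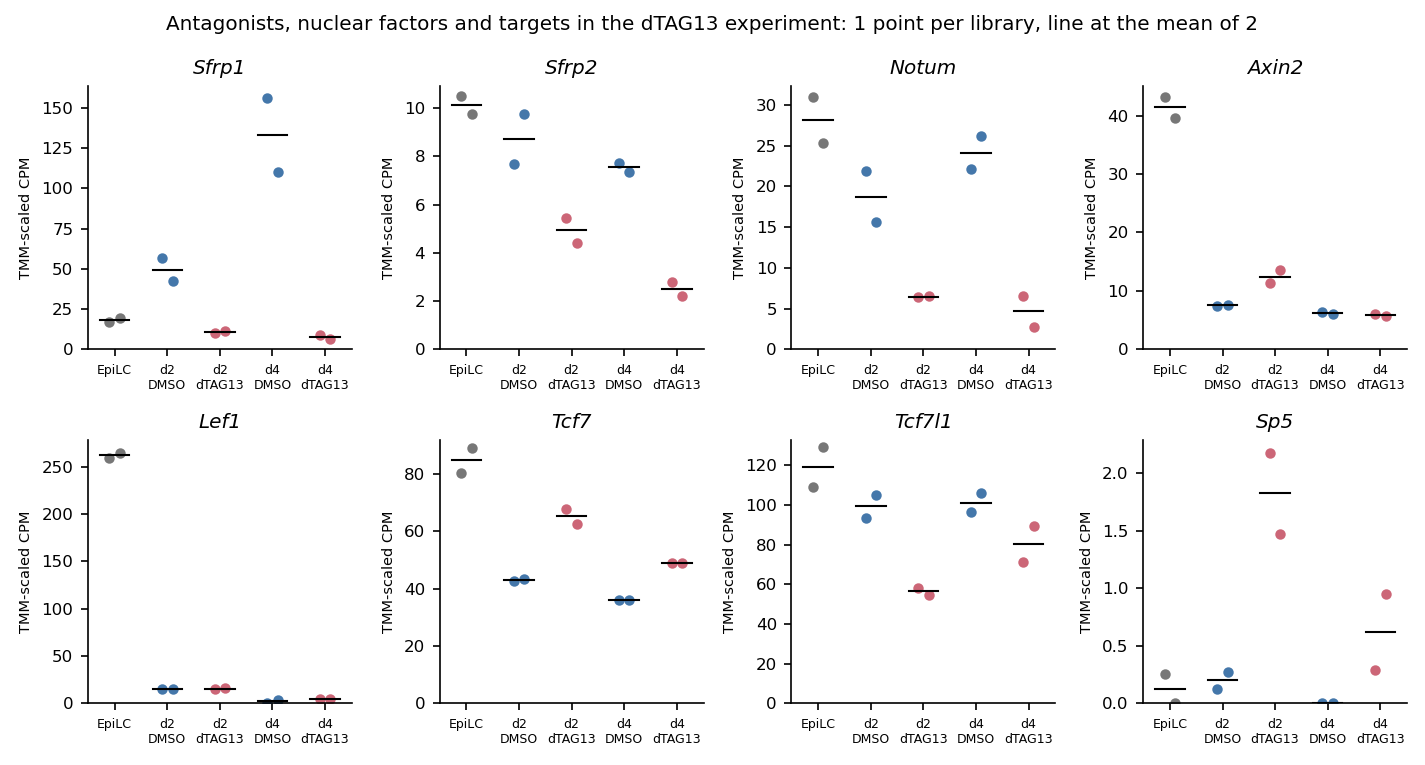
TMM-scaled CPM (y axis, each panel from 0) of 3 antagonists, Axin2, 3 nuclear factors and Sp5 in the 10 libraries of the dTAG13 experiment, with 1 point per library and a line at the mean of 2. Sfrp1 climbs with stage in DMSO cells, to 156 and 110 at day 4, and not in treated cells, and Axin2 and Lef1 are highest in EpiLCs.

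An interaction term compared the dTAG13 effect of day 4 with that of day 2, and 3 of 42 members were called, against 1.25% of all genes. Wnt7b (1.94, standard error 0.343, limma adjusted p 0.0051) and Fzd2 (1.52, standard error 0.339, limma adjusted p 0.0238) had a higher effect at day 4, and Sfrp1 (-1.86, standard error 0.27, limma adjusted p 0.00117) a lower one. Fzd2 was at 16.7 and 14.9 against 8.7 and 12.3 at day 2 and at 6.01 and 2.99 against 10.1 and 8.42 at day 4, so the treated libraries were below the controls at day 2 and above them at day 4. Its day 4 change of 0.95 fell short of the threshold without DMSO replicate 2 (0.55, limma adjusted p 0.0738). The calls of Wnt7b and Fzd2 were each lost when single libraries were left out. The changes in those fits were 1.81 to 1.87 for Wnt7b and 1.11 to 1.64 for Fzd2. None of the 3 held with no filter, where 0.0410% of all genes were called. The limma adjusted p was then 0.136, 0.214 and 0.0901 for Wnt7b, Fzd2 and Sfrp1.

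Among 50 other genes of the pathway, 36 passed the filter in this table. At day 2, 14 of them were called (9 higher, 5 lower), and at day 4 it was 19 (11 higher, 8 lower), shares of 38.9% and 52.8% beside 33.6% and 41.8% of all genes. The largest called changes at day 2 were Apc2 (2.76), Pygo1 (1.13), Kremen1 (1.12) and Bcl9l (0.98), and at day 4 Apc2 (2.83), Bcl9l (1.48), Ccnd1 (-1.32) and Bcl9 (-1.26). Bcl9, Bcl9l and Pygo1 are cofactors of beta-catenin, Apc2 is a relative of Apc, and Ccnd1 is a cell cycle gene often listed as a target.

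Markers of other states moved with treatment too. The sum of 7 pluripotency genes was 2390 to 2580 with DMSO and 1320 to 1380 with dTAG13 at day 2, and 3080 to 3560 against 1670 to 1910 at day 4. The sum of 11 mesoderm and endoderm genes was 14.8 to 17.4 against 38.1 to 47.4 at day 2 and 21.4 to 21.8 against 44.3 to 46.9 at day 4, where 3 of the 11 were at or under the floor in each group (4 and 3 at day 2). At 0 in both libraries of a group were Foxa2 (day 2, DMSO), Mesp1 (day 4, DMSO, and EpiLCs) and T (day 4, dTAG13). Higher sums with dTAG13 were also found for 4 smooth muscle genes, Acta2, Myh11, Tagln and Cnn1 (16.2 to 29 against 52.2 to 59.9, and 8.07 to 8.27 against 62.3 to 105) and for 4 endothelial genes (80.7 to 85.1 against 124, and 96.1 to 103 against 173 to 174). For 5 spermatocyte genes the sums were 9.23 to 11.4 against 13.9 to 23.8 and 9.67 to 10.5 against 24.8 to 25.4. For 4 macrophage genes they were 11.8 to 14.9 against 19.3 to 22.5 and 11.1 to 16.8 against 20.5 to 23.4. For 6 fibroblast genes they were 3.4 to 3.53 against 5.75 to 8.83 and 3.11 to 4.78 against 5.87 to 6.36. Lower with dTAG13 were 5 spermatogonial genes, at 48.9 to 57.9 against 29.2 to 31.6 and 61.7 to 64.8 against 25.1 to 34.2. The sum of 7 germ cell specification genes was 251 to 265 against 216 to 221 and 291 to 323 against 261 to 267. The part of these shifts in the Wnt results was not tested.

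In the overexpression experiment few members were called. Over 4 stages, with stage as a covariate, 6 of 42 tested members were called (1 higher, 5 lower) against 8.76% of 15255 genes (4.54% higher, 4.22% lower), and with no filter 4 of the 54 members with any read were called, all lower, against 2.24%. The median was -0.11 over the members and 0.006 over all genes tested. Of 7 ligands tested, 2 were lower and 0 higher, with a median of -0.38, and with no filter 1 of the 15 ligands with any read was lower, with a median of -0.05 beside -0.005 over all genes. Wnt3 (-1.07), Lef1 (-0.87), Sfrp1 (-0.75), Wnt8a (-0.6) and Porcn (-0.44) were lower in the clones and Fzd10 (0.29) higher. Stages stand in for replicates here, since each stage had 1 empty-vector library, and the spread between control lines cannot be told apart from the effect of overexpression.

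Wnt3 was at 7.36 in the empty-vector line and 2.09 and 3.16 in the clones as EpiLCs, at 4.45 against 2.77 and 3.18 at day 2, at 5.82 against 1 and 2.05 at day 4 and at 1.66 against 0.488 and 0 at day 6. The clones lay below the control at each of the 4 stages, and the change of -1.07 had a standard error of 0.218 and a limma adjusted p of 0.0016. Lef1 was at 195 against 170 and 173 in EpiLCs, at 12.5 against 5.55 and 5.9 at day 2, at 11 against 5.85 and 4.11 at day 4 and at 23 against 7.97 and 10 at day 6 (-0.87 over all stages, standard error 0.136, limma adjusted p 6.14e-05). The gap in Lef1 was small in EpiLCs, at -0.2 and -0.18 on the log2 scale, and between -1.42 and -0.81 at the later stages. Lef1 shares exon bases with Gm43352 on the opposite strand.

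Sfrp1 was at 48.5 against 22.5 and 23.5 in EpiLCs, 104 against 50.1 and 52.1 at day 2, 126 against 87.7 and 88.3 at day 4 and 165 against 133 and 114 at day 6 (-0.75 over all stages, standard error 0.0841, limma adjusted p 2.15e-07). Its surroundings on chromosome 8 were lower as well: of its 20 nearest tested genes 18 were called, with a median of -0.67. For Wnt3 and Lef1 the neighbours had medians of 0.06 and 0.02, with 0 called. Porcn was at 11.4 against 7.01 and 8.52 in EpiLCs, 26 against 17.3 and 16.2 at day 2, 23.8 against 23.1 and 20.7 at day 4 and 47.3 against 32.1 and 32.6 at day 6. Fzd10 was at 41.3 against 45.8 and 54.9, 32.5 against 39.7 and 36.6, 42.1 against 48.8 and 46.5, and 36 against 53.5 and 49.5 at the same stages. Wnt8a was at 19.5 against 20.6 and 18.5 in EpiLCs, where the lines overlapped, and at 12.5 against 4.47 and 4.84 at day 2, 4.9 against 2.51 and 2.43 at day 4 and 1.51 against 1.3 and 0.582 at day 6. The calls of Wnt8a, Porcn and Fzd10 were lost without clone 1 (-0.68, -0.44 and 0.29) or without clone 2 (-0.53, -0.45 and 0.3). Their changes with both clones were -0.6, -0.44 and 0.29. Each loss left 3 called members (2.79% and 2.71% of all genes). These were the same 3 (Wnt3, Lef1 and Sfrp1) that were called under every alternative tried. Without EpiLCs 10 members were called (9.12% of all genes), and without day 6 it was 3 (5.17%).

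**Figure D4:**
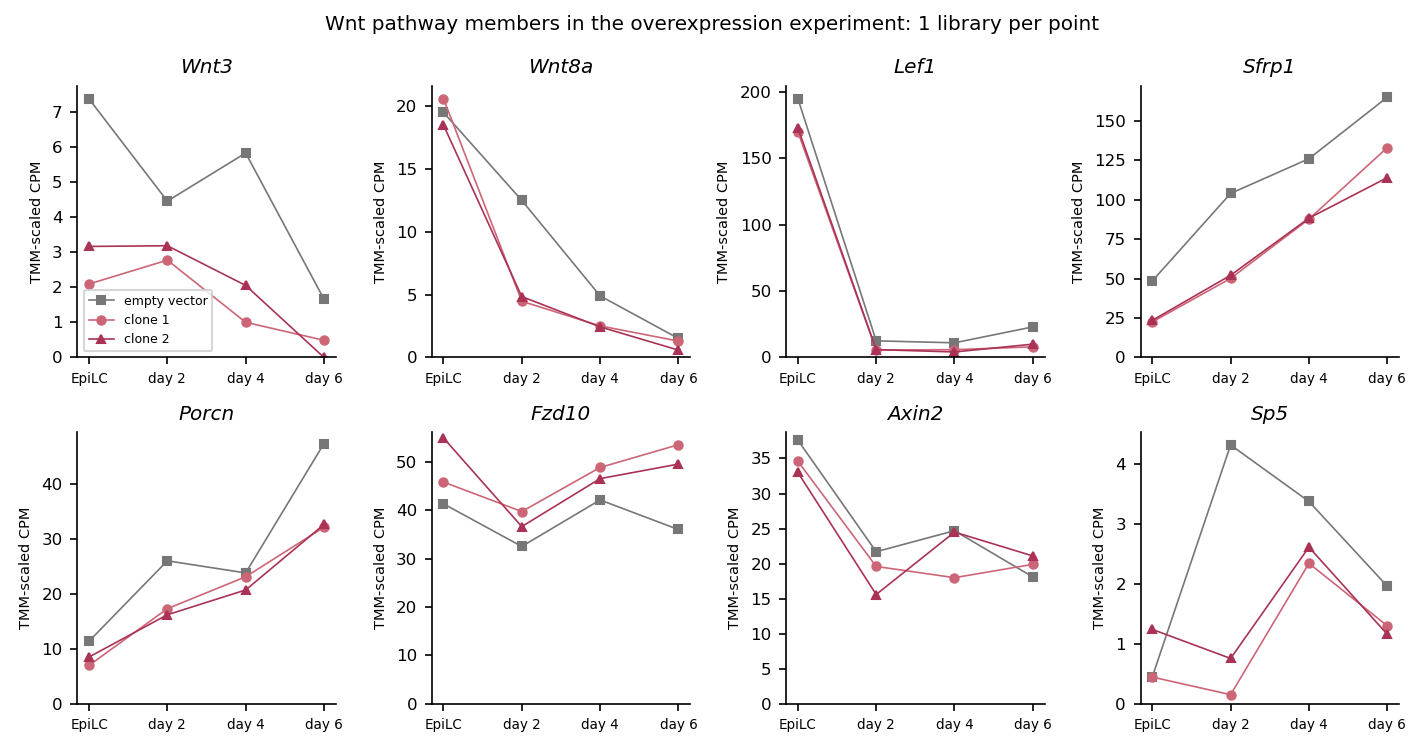
TMM-scaled CPM (y axis, each panel from 0) of 8 members by stage (x axis) in the empty-vector line and the 2 overexpression clones, with 1 library per point and lines joining the stages of a line. The clones lie below the empty-vector line at all 4 stages for Wnt3, Lef1, Sfrp1 and Porcn and above it for Fzd10.

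Axin2 and Wnt3a were not called. Axin2 was at 37.6 against 34.6 and 33 in EpiLCs, 21.7 against 19.6 and 15.6 at day 2, 24.7 against 18 and 24.5 at day 4 and 18.1 against 19.9 and 21.1 at day 6 (-0.12, limma adjusted p 0.56). Wnt3a, at 0 in the 3 EpiLC libraries, was at 2.15 against 3.54 and 1.82 at day 2, 5.06 against 4.85 and 4.85 at day 4 and 1.05 against 1.3 and 0.146 at day 6 (-0.05, limma adjusted p 0.927). Sp5 was at 4.31 in the empty-vector line and 0.154 and 0.757 in the clones at day 2, at 3.37 against 2.34 and 2.61 at day 4, at 1.96 against 1.3 and 1.16 at day 6 and at 0.451 against 0.447 and 1.24 in EpiLCs (-0.58, limma adjusted p 0.182). The clones were thus below the control from day 2 on, without reaching the threshold over all stages. Summed per kilobase over all 16 ligands, the level was 17.1 against 16 and 14.5 in EpiLCs, 13.3 against 7.71 and 7.85 at day 2, 12.6 against 8.98 and 10.3 at day 4 and 6.62 against 4.0 and 3.55 at day 6. The sum of 11 mesoderm and endoderm markers was 50 against 45.2 to 52.7 in EpiLCs, 21 against 14.2 to 16.8 at day 2, 60.5 against 33.4 to 41.3 at day 4 and 38.5 against 33.3 to 33.9 at day 6, and its part in these values was not tested. Of 38 other pathway genes tested, 1 was called (2.63%, beside 8.76% of all genes), Tnks (-0.77), 14 of whose 20 neighbours on chromosome 8 were called as well, with a median of -0.52.

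The stages of this table also cover the course of induction, with line as a covariate and the clones included. From EpiLCs to day 2, 32 of 42 members were called (16 higher, 16 lower) against 46.3% of all genes. Lef1 fell by 4.41, Fzd4 by 1.54 and Wnt8a by 1.44, and Rnf43 (1.98), Wnt7b (1.96), Fzd5 (1.87) and Wnt3a (1.78) rose. Axin2 fell by 0.86 (limma adjusted p 2.67e-05). From day 2 to day 4, 18 members were called (9 and 9) against 23.0%, led by Sfrp2 (-1.97), Fzd2 (-1.32) and Tcf7l2 (0.96). Some members differed here from the DMSO libraries over the same interval, a difference that was not tested. Wnt7b rose by 0.92 (4.17, 3.7 and 4.84 at day 2 and 7.97, 8.52 and 10.3 at day 4, limma adjusted p 0.0117, 0.0647 with no filter), where it fell by 1.29 with DMSO. Lef1 (-0.18, limma adjusted p 0.541) and Wls (-0.46, limma adjusted p 0.263) were not called, where they fell by 2.51 and 1.99 with DMSO. Wnt4, under the filter here, was at 0.66 (limma adjusted p 0.32 with no filter), where it fell by 1.38 with DMSO. With no filter, the DMSO falls of Wnt4 and Wnt7b were not called either (limma adjusted p 0.0977 and 0.0619). Those of Lef1 and Wls were called (limma adjusted p 0.00407 and 0.00735). From day 4 to day 6, 12 members were called (6 and 6) against 6.88%. In that last step Rnf43 (-2.03), Wnt7b (-1.85), Wnt3a (-1.75), Wnt3 (-1.13) and Wnt8a (-0.99) fell and Lef1 (0.83), Fzd8 (0.88) and Notum (0.69) rose. With no filter, the calls of Wnt3 (limma adjusted p 0.117), Wnt8a (0.121), Lef1 (0.0567) and Fzd8 (0.0816) at this step were lost. Fzd5 and Sfrp1 rose at each of the 3 steps, by 1.87, 0.6 and 0.39 and by 1.1, 0.61 and 0.45, and the last rise of Sfrp1 was not called with no filter (limma adjusted p 0.105). For day 2 to day 4, 8 members were called without clone 1, 9 without clone 2 and 18 without the empty-vector line (10.3%, 10.6% and 26.7% of all genes). For day 4 to day 6 it was 8, 5 and 10 (1.67%, 2.01% and 9.35% of all genes).

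In testis, 13 of 41 tested members were called between cKO and wildtype, 10 higher and 3 lower, against 29.1% of 20658 genes (16.1% higher, 13.1% lower). The share of members called, 31.7%, was near that background. Higher in cKO were the ligands Wnt4 and Wnt6, the receptors Fzd2, Fzd7 and Lrp6, the antagonist Frzb, and Ctnnb1, Porcn, Apc and Lgr4, and lower were Wnt3, Wnt7a and Lrp5. The median of the members was 0.57 beside 0.013 over all genes tested, with class medians of 0.18 for ligands, 0.58 for receptors and 0.73 for antagonists.

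Wnt6 was at 25 and 20.4 in wildtype and 52.2 and 47.5 in cKO, a rise of 1.11 (standard error 0.164, limma adjusted p 0.000376). Wnt3 went the other way, from 44.3 and 47.1 to 25.6 and 33.7 (-0.62, standard error 0.166, limma adjusted p 0.0128). Per kilobase of exon, Wnt3 was thus the highest of the 11 ligands with a row in wildtype, at 14.9 with Wnt6 at 10.4, and Wnt6 the highest in cKO, at 22.8 with Wnt3 at 9.66. Wnt4, known for a role in gonad development, was at 0.685 and 0 in wildtype and 5.71 and 1.78 in cKO (1.73, limma adjusted p 0.0108). Wnt4 and Fzd2 passed the filter only through the cKO libraries, and without cKO replicate 1 the change of Wnt4 was 1.1 (limma adjusted p 0.169) and that of Wnt3 -0.43 (limma adjusted p 0.155).

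Frzb, a secreted relative of the Sfrp proteins, was at 8.56 and 10 in wildtype and 26.7 and 29 in cKO (1.49, limma adjusted p 0.000233), and Fzd7 at 5.14 and 4.87 against 17.3 and 13.9 (1.46, limma adjusted p 0.00105). Ctnnb1 was at 109 and 98.1 against 177 and 169 (0.74, limma adjusted p 0.000696), and it shares exon bases with Ulk4 on the opposite strand. Porcn was at 2.91 and 2.35 against 8.5 and 6.23 (1.19, limma adjusted p 0.0114), on an X chromosome whose tested genes had a median of 0.6 beside 0.02 on the autosomes. Fzd2 was at 0.685 and 0.471 against 1.95 and 2.67 (1.06, limma adjusted p 0.0394), and Wnt7a at 3.25 and 3.3 against 1.39 and 0.762 (-1.06, limma adjusted p 0.0358). Without cKO replicate 1, 8 members and 15.2% of all genes were called, and Porcn (1), Fzd2 (1.22) and Wnt7a (-1.28) were not. Fzd2 and Wnt7a lost their calls without any 1 of the 4 libraries (0.91 to 1.22 and -1.28 to -0.84), and Lrp5 without cKO replicate 2 (-0.47). Each named member showed no overlap between groups. The share of all genes without overlap was not computed, so this adds no support to the calls. Of the 13 members, 5 (Wnt6, Fzd7, Lrp6, Frzb and Lgr4) were called under every alternative tried.

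**Figure D5:**
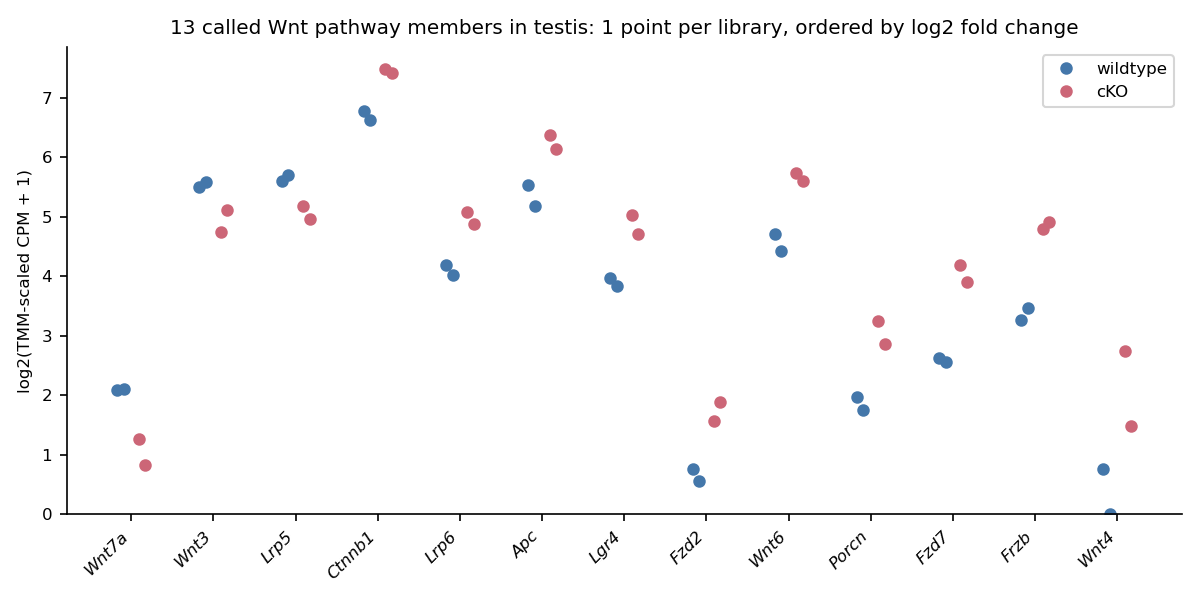
Log2(TMM-scaled CPM + 1) (y axis, from 0) of the 13 called members (x axis, ordered by log2 fold change) in 2 wildtype and 2 cKO testis libraries, with 1 point per library. The cKO points lie below the wildtype points for Wnt7a, Wnt3 and Lrp5 and above them for the other 10 members.

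Wnt3a (-0.38, limma adjusted p 0.419), Axin2 (0.73, limma adjusted p 0.0998), Lef1 (-0.24, limma adjusted p 0.195) and Sfrp1 (0.86, limma adjusted p 0.131) were not called in testis. In wildtype and cKO, Wnt3a was at 4.79 and 4.87 against 2.51 and 4.7, Axin2 at 2.4 and 3.3 against 5.29 and 5.34, Lef1 at 142 and 171 against 120 and 144 and Sfrp1 at 1.88 and 3.45 against 9.19 and 3.18. Axin2 and Wnt3a had no overlap between groups, and Lef1 and Sfrp1 did. Of 35 other pathway genes tested, 12 were called (8 higher, 4 lower), a share of 34.3% beside 29.1% of all genes, with Tle2 (1.86), Prickle1 (1.28), Tle4 (1.21) and Tnks2 (1.19) the largest.

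The makeup of the testis samples differed between groups by marker sums. Sums in cKO against wildtype were 544 to 642 against 213 to 236 for 6 Sertoli cell genes, 596 to 982 against 242 to 348 for 6 Leydig cell genes, 59.5 to 73.6 against 34.1 to 40.2 for 4 peritubular myoid genes and 42.3 to 66.2 against 18 to 18.7 for 5 fibroblast genes. For germ cells, the sums were 103 to 112 against 62 to 76 for 5 spermatogonial genes, 410 to 453 against 449 to 476 for 5 spermatocyte genes and 12500 to 13000 against 16900 to 19300 for 5 spermatid genes. None of these listed genes was at 0 in either group. The part of cell makeup in the Wnt values was not tested.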

How the data were processed

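RNA-seq of 26 samples was analysed from 3 tables. The authors deposited a signal per gene and library scaled to a common library size by TMM (a scaled CPM), per the file headers and table names. In each library these values were whole multiples of 1 step, and 100% of values gave whole reads within a tolerance of 0.02. The submitters' processing notes name mm10, Bowtie2 2.3.4.3, SAMtools 1.9, HTSeq 0.11.2 and edgeR 3.26.8, with no role or order. The annotation and the strand setting are not given in the sources used here. The labels' protocols name one library kit for batches 1 and 3 and another for batch 2, without tying samples to batches. The deposited log2 fold changes and p-values (FDR) of the authors' own comparisons were used once, for a count of members.

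Values were tested as log2(value + 1) with limma 3.58.1 in R 4.3.3, with a variance trend, over genes with a mean of at least 1 in a table. P-values were adjusted by Benjamini-Hochberg over all genes of a comparison, and 10 comparisons were made. The dTAG13 table was fitted with 5 groups, overexpression with stage or line as covariate, and testis with 2 groups. Comparisons within the dTAG13 table share libraries, as do those within the overexpression table, and are not independent. The planned design assumed no block, and numbers of replicates did not pair the samples, with correlations of deviations from -0.069 to 0.118. Read ratios have exact 95% counting intervals. Alternatives were another pseudocount (0.1), no filter, median-ratio scaling, no variance trend, edgeR 4.0.16 quasi-likelihood tests on recovered reads, a replicate block, and leaving out each library, line or stage. On data simulated for the day 4 dTAG13, overexpression and testis comparisons, the test recovered 64.5%, 95% and 46.9% of changes of 1 on the log2 scale. The simulation gave every gene the same dispersion and no difference between stages, lines or clones beyond the added changes. These shares therefore do not measure recovery in the real data, where stages differ and lines or clones may.

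All members may be named. Values in every library are given for up to 6 called members with separate groups and the largest changes in a comparison, and for Wnt3, Wnt3a, Axin2, Sp5, Lef1, Sfrp1 and Tex10. Up to 4 other pathway genes are named in a comparison. The members and lists were chosen with earlier results of these data known.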

Additional observations from a re-analysis of the deposited data

Results flagged for a closer look

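The interaction test called a difference in dTAG13 effect between day 4 and day 2 for 3 of 42 members, against 1.25% of all genes. These were Wnt7b (1.94 on the log2 scale), Fzd2 (1.52) and Sfrp1 (-1.86). None of the 3 calls held with no filter or with no variance trend, and those of Wnt7b and Fzd2 were also lost without single libraries. For Axin2, the mean of the overexpression clones over the empty vector was 0.17 at day 6, where both clones lay above the control, while both lay below it at the other 3 stages. That difference between stages was not tested.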

How the results depend on the processing

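The number of members called kept within 1.5 times its main value under the alternatives other than these. From day 2 to day 4 with DMSO, 5 were called with no filter (0.873% of all genes) and 6 with no variance trend (2.68%). The main fit called 5.52% of all genes there. For the difference in dTAG13 effect between days, 0 were called by limma with no filter (11 at an unadjusted p under 0.05) and 0 with no variance trend (9 at an unadjusted p under 0.05), against 3 by edgeR. The shares of all genes called were 0.041%, 0% and 1.49% in that order, beside 1.25% in the main fit. From day 4 to day 6 it was 6 with no filter, 5 with no variance trend and 7 without the line term, and in testis 8 with no variance trend. Leaving out libraries, lines or stages gave 16 to 20 from EpiLCs to day 2, 6 to 10 from day 2 to day 4, 18 to 23 and 24 to 28 for dTAG13 at day 2 and day 4, 1 to 3 for their difference (1 without day 2 dTAG13 replicate 1 and 1 without day 4 dTAG13 replicate 2), 3 to 10 for overexpression, 25 to 29, 8 to 18 and 5 to 10 for the 3 stage steps of that table, and 8 to 18 in testis. The share of all genes called also moved in these fits. With the replicate block the counts were 20, 10, 23, 28 and 3 in the dTAG13 table, 5 for overexpression and 17 in testis. The shares of all genes called with it were 25.6%, 5.43%, 33.2%, 41.5% and 1.21%, then 8.1% and 34.8%. Without the line block, the stage steps gave 30, 12 and 7. Shared replicate numbers had correlations of -0.025, -0.069, 0.118 and 0.093 in the dTAG13 table and 0.116 in testis, so the numbers alone did not pair samples. The sign reversed for Axin2 with dTAG13 at day 4 (0.04 with median-ratio scaling, 0.06 with edgeR), Wnt3a with overexpression (0.16 without clone 2, 0.04 without day 6, range -0.26 to 0.16), and Wnt3 (0.15, range -0.3 to 0.15) and Sp5 (-0.34, range -0.34 to 0.77) from EpiLCs to day 2 without the empty-vector line. None of these 4 was called, and the cause was not tested. Over 1936 values for named genes, 1706 kept direction and call, 218 lost a call, 6 gained one and 6 reversed. With the filter on control libraries only, chosen after seeing the data, 20, 25, 6 and 11 members were called for dTAG13 at day 2 and day 4, overexpression and testis. Of all genes under that filter, 32.5%, 41%, 8.73% and 28.9% were called. A floor of 3 reads limits what can be said of ligands near 0.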

Other observations

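In the authors' deposited table, at an FDR under 0.05, 17 of 55 members were called for dTAG13 at day 2 (12 higher, 5 lower) and 21 at day 4 (15 higher, 6 lower). Among all 53978 rows of the authors' deposited table, of which 16605 passed the filter used here, 5.49% and 7.98% were called. In testis the authors' deposited table called 16 of 42 members (13 higher, 3 lower), against 30.7% of 21275 rows. For the clones against the empty vector, the authors' deposited table called 3 of 55 members in EpiLCs (2 higher, 1 lower), then 5, 6 and 3 at the later stages in order, all lower. The shares of all 50969 rows, of which 15255 passed the filter used here, were 0.677%, 1.47%, 1.65% and 0.606%.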
